A study of Mus musculus with 24 samples.

Results

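Promoters of the nuclear genes for oxidative phosphorylation were examined by ATAC-seq, which cuts accessible DNA with a transposase, in mouse embryonic stem cells. Intervals were taken from the consensus set when the deposited annotation paired them with a protein-coding gene on chromosomes 1 to 19, with the transcription start site (TSS) at most 1000 bp away and a gene name that starts with Nduf, Uqcr, Sdha, Sdhb, Sdhc, Sdhd, Cox4, Cox5, Cox6, Cox7, Cox8 or Atp5. This gave 66 intervals of 145143, 1 for each of 66 genes. They are 66 of the 97 genes with such names that RefSeq places on these chromosomes. Of the other 31, 12 had an interval at their RefSeq start that was paired with another gene, 3 had one paired with the gene itself beyond 1000 bp, and 16 had no interval there in the set used here. Near the limit, Cox4i2 lay inside it at -824 bp (5.01 CPM per kb), and the nearest interval outside it was that of Cox5a at 1024 bp (9.66 CPM per kb). CPM are counts relative to the scaled library size, divided by the interval length in kb where intervals are compared with each other.

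Firre is a long noncoding RNA gene on the X chromosome, and the series asks how accessibility changes in the minutes after it is induced. The lines were a control labelled WT, a line labelled Firre inducible transgene, a control labelled Firre KO, and a line labelled Firre KO / Firre inducible transgene. They are called wild type control, wild type Firre line, knockout control and knockout Firre line here. All lines, controls included, received doxycycline, and each was sampled at 0, 30, 60, 90, 120 and 150 min with 1 library per time. The labels give neither the number of clones behind a line nor separate cultures within a time, so genotype and clone cannot be told apart, and the p-values measure the spread between the libraries of a line. A library of the design was not analysed here, that of the wild type Firre line 60 min after doxycycline, which leaves 23 libraries with 5725518 to 14977148 counts in intervals (median 7664147). No pair of libraries was identical. All 9 embryonic stem cell markers had a promoter interval, 2 of 5 fibroblast or feeder markers did (Twist1 and Pdgfra), and 2 of 5 germ layer markers did (T and Gata6).

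Oxidative phosphorylation makes ATP at the inner mitochondrial membrane. Complex I (NADH dehydrogenase, Nduf genes) and complex II (succinate dehydrogenase, Sdh genes) pass electrons to ubiquinone, complex III (Uqcr genes) passes them on to cytochrome c, complex IV (cytochrome c oxidase, Cox genes) reduces oxygen, and the proton gradient they build drives ATP synthase (Atp5 genes). Most subunits are encoded in the nucleus, and their promoters are known for sites of NRF1, of the ETS factor GABP and of YY1. Naive embryonic stem cells respire as well as using glycolysis. By role, the members were 30 subunits of complex I, 6 complex I assembly factors (Ndufaf genes), 2 subunits of complex II, 3 complex II assembly factors (Sdhaf genes), 3 subunits of complex III, 13 of complex IV and 9 of ATP synthase. Ndufa4, named for complex I, is counted with complex IV, to which its protein belongs.

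Bases upstream of the RefSeq start are shown for members that the results turn on, 5′ to 3′ on the gene's strand and ending at the base before the start. At most 180 bases are printed, and fewer where another RefSeq gene begins. Capitals mark matches, on either strand, to 8 sets of letters: CGCATGCG (the core of an NRF1 site), CCGGAAG (ETS and GABP), AAGATGGCG (YY1), GGGGCGG (Sp1), AAGGTCA (an ERR site), TGACGTCA (CRE), CCAAT and TATAAA. The first set holds 5 of the 13 members called higher in the knockout control, both large differences (Ndufaf8, Ndufv2 and Ndufs8) and the smaller ones of Ndufa11 and Atp5e, picked with their values known, and for Ndufaf8 and Ndufa11 the stretch is the whole gap to the neighbouring gene, Tepsin or Vmac.
Ndufaf8: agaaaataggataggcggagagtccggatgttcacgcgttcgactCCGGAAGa
Ndufa11: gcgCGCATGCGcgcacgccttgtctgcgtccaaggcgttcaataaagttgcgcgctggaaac
Ndufs8: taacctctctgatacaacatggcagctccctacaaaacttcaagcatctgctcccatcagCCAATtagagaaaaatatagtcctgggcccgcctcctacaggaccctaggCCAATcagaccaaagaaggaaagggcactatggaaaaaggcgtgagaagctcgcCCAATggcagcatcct
Ndufv2: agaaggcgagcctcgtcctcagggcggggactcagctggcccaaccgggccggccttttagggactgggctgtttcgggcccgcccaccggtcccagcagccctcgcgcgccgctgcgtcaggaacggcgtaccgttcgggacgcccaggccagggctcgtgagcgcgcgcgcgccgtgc
Atp5e: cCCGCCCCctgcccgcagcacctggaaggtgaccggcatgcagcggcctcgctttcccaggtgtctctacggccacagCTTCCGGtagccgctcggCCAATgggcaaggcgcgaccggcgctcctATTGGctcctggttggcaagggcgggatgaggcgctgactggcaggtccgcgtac
In the GRCm38.p6 assembly these lie at chr11:120098881-120098933 (plus strand), chr17:56717700-56717761 (plus), chr19:3912775-3912954 (minus), chr17:66101560-66101739 (minus) and chr2:174464102-174464281 (minus). The 53 bases of Ndufaf8 end with an ETS match at -8, counted from the start, and the 62 bases of Ndufa11 hold an NRF1 core at -59. Ndufv2 has no match in its stretch, and Ndufs8 has 3 CCAAT boxes.

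The next set shows 2 promoters that hold an NRF1 core and an ETS match, and the isoform genes compared by level further on.
Cox6a1: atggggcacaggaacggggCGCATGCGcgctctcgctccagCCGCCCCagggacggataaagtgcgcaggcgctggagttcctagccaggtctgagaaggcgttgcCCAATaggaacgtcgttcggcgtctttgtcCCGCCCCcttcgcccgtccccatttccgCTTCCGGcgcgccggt
Uqcr11: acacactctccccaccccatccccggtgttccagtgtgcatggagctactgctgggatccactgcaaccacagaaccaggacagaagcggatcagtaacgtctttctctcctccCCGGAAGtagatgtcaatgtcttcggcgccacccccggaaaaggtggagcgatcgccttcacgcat
Cox6b1: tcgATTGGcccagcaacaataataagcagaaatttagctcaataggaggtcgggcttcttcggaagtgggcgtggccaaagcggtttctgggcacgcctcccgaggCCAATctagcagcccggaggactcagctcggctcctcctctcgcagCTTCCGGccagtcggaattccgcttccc
Cox6b2: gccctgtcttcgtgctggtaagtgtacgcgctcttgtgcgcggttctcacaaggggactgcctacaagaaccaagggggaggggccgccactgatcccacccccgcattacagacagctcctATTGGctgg
Cox7a1: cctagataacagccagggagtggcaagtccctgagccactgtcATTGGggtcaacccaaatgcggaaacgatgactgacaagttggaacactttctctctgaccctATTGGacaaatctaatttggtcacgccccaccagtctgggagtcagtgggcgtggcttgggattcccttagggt
They lie at chr5:115348959-115349138 (minus strand), chr10:80406822-80407001 (minus), chr7:30626115-30626294 (minus), chr7:4753095-4753225 (minus) and chr7:30183991-30184170 (plus). Cox6a1 carries the NRF1 core at -161 and the ETS match at -16. In Uqcr11 the NRF1 core begins at -5 and runs across the start, so only its ETS match at -66 is in capitals. Cox6b1, the widely expressed isoform, has an ETS match at -28, while the stretch of Cox6b2, the testis isoform, ends at Fam71e2 and holds a CCAAT box only.

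Among members, the letters of factors known for respiratory genes were more frequent than at promoters in general. RefSeq windows of 300 bases (250 before to 50 after the start) were found for 56 of the 66 genes, and 43 of the 56 held at least 1 of the 8 motifs. Genes for which no window was found include Ndufaf6, Cox4i2, Cox6a2, Cox8c, Ndufa2, Cox6c, Ndufb9, Uqcrc2 and Atp5d. The NRF1 core stood in 7 of 56 windows (12.5%), against 3.68% of 6146 protein-coding promoters with an interval and 1.87% of all 32851 windows. The ETS letters stood in 15 windows (26.8%, against 16.3% and 8.86%), and YY1 in 7 (12.5%, against 2.64% and 1.40%). The ERR letters stood in 6 windows (10.7%, against 3.01% and 4.72%) and the CRE in 4 (7.14%, against 3.50% and 1.79%). Sp1 letters went the other way against open promoters, with 32.1% of members, 42.6% of open promoters and 23.2% of all windows. The CCAAT box (41.1%, 37.9% and 37.4%) and TATAAA (8.93%, 7.70% and 13.6%) were near the open promoters. NRF1 and ETS letters occurred together in Atp5k, Cox6a1 and Uqcr11. These shares are descriptions with no test, and a match is not a bound site.

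Members also lay more often beside a gene on the opposite strand. Of the 56 intervals that hold their own gene's window, 15 (26.8%) held the window of a protein-coding gene on the other strand, against 665 of 6151 promoter intervals (10.8%). Such pairs were Atp5j with Gabpa (a GABP subunit), Ndufb5 with Mrpl47 (a mitochondrial ribosomal protein), Sdha with Ccdc127, Sdhaf2 with Cpsf7 and Ndufaf8 with Tepsin. A count in such an interval cannot be assigned to either gene. The median ratio of observed to expected CpG in the window was 0.825 for members, 0.735 for open promoters and 0.384 for all windows, with a GC content of 58.8%, 60.7% and 52.7%.

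The median member was more accessible than the median promoter interval. Over all 10012 protein-coding promoter intervals, tested or not, the median was 11.4 CPM per kb. The median level of the members over the 23 libraries was 15.8 CPM per kb, at the 67.1 percentile of these intervals. The most accessible member was Cox6b2 at 43.4 CPM per kb (98.8 percentile). It was followed by Ndufs8, an iron-sulfur subunit of complex I, at 36.4, the assembly factor Ndufaf8 at 33.6, the complex I subunit Ndufa11 at 31.3 and the widely expressed complex IV isoform Cox8a at 27.96 CPM per kb. The least accessible were Cox6a2 (3.68), Cox8c (4.86), Cox4i2 (5.01), Ndufs4 (6.07) and Ndufa9 (6.71). All of these but Ndufa9 were below the 25th percentile of promoter intervals, 6.32 CPM per kb. The median level was 16.3 CPM per kb for complex I subunits, 14.6 for their assembly factors, 21.0 for complex II, 12.9 for complex III, 13.5 for complex IV and 17.9 for ATP synthase. Complex IV spanned the whole range and held both the highest and the lowest member.

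**Figure D1:**
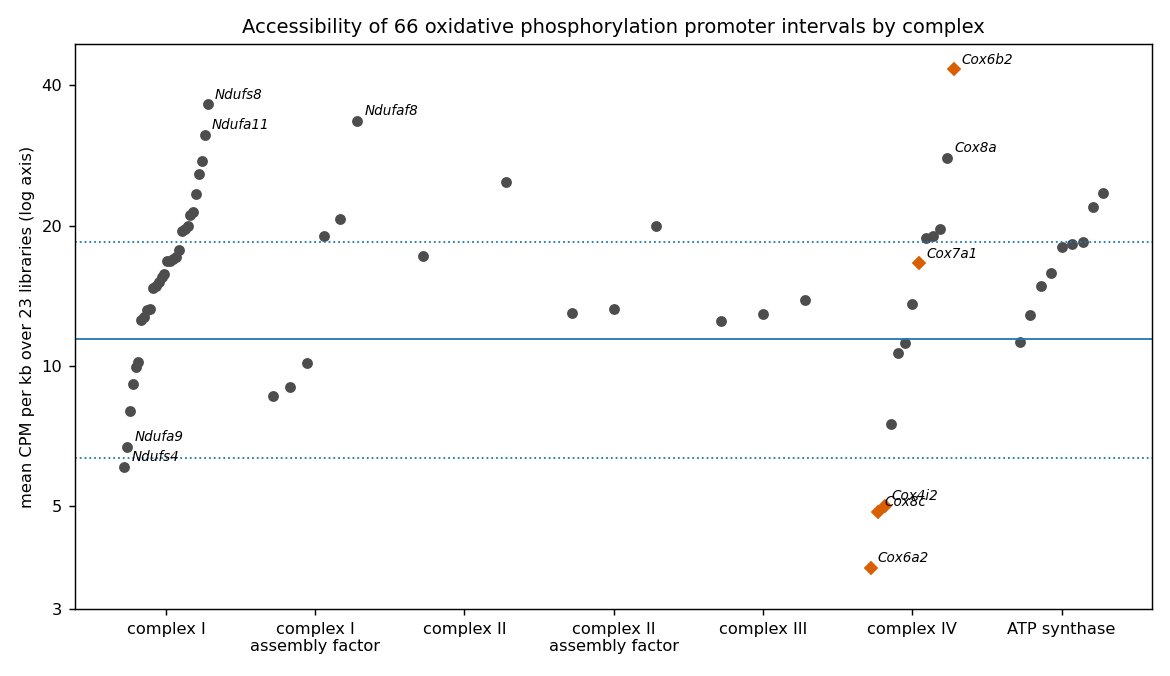
Mean CPM per kb over 23 libraries (log axis) of each of the 66 members, grouped by complex. Diamonds are tissue-restricted isoforms, and the horizontal lines are the 25th, 50th and 75th percentiles of all protein-coding promoter intervals, tested or not. Of the 5 diamonds, 3 lie below the lower dotted line, and Cox6b2 is the highest point.

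Tissue-restricted isoforms of complex IV did not share 1 level. Cox6a2, the heart and muscle isoform, was below Cox6a1 in 23 of 23 libraries, with a median ratio of levels per kb of 0.284, and rested on 4 to 17 counts per library. Cox8c, a testis isoform, was below Cox8a in 23 of 23 libraries (median ratio 0.182) and held 10 to 43 counts. Cox7a1, the heart and muscle isoform, stood at 16.6 CPM per kb beside 18.8 for Cox7a2, with a ratio of 0.748 to 1.16 that exceeded 1 in 5 of 23 libraries. Cox6b2 was above Cox6b1 in 23 of 23 libraries, with a ratio of 2.85 to 5.62 and a median of 3.94. The interval of Cox6b2 also overlaps Fam71e2, and which gene's start the counts belong to was not tested. Cox4i2, the isoform known for lung and hypoxia, has its interval 824 bp before its start. The partner Cox4i1 had no member interval.

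The catalytic core had 13 of 22 listed genes among the members, with 36.4 CPM per kb at Ndufs8. Lower levels were found at Uqcrc2 (12.9), Cox5b (13.5), the Rieske protein Uqcrfs1 (13.9), Ndufs7 (16.9), Sdha (17.2), Atp5d (17.9), Atp5e (18.4), Atp5c1 (21.9), the flavoprotein subunit Ndufv1 (23.4), Sdhb (24.8) and Ndufv2 (27.5). Neighbours in this order from Ndufs7 to Atp5e differed by less than the spread between libraries. The median coefficient of variation of a member over the libraries of a line was 8.64% in the wild type control, 12.0% in the wild type Firre line, 10.7% in the knockout control and 9.65% in the knockout Firre line. For promoter intervals of like level the medians were 8.67%, 10.5%, 10.2% and 9.10%.

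Summed over the 66 members, accessibility was lowest in the wild type control, at 1372 ± 43.3 CPM (SD, n = 6). The wild type Firre line had 1507 ± 151 CPM (n = 5), the knockout control 1552 ± 103 CPM (n = 6) and the knockout Firre line 1544 ± 86.0 CPM (n = 6). The wild type control ran from 1306 to 1429 CPM, and all 6 knockout control libraries (1430 to 1687 CPM) were above it, the closest by a narrow margin. The wild type Firre libraries were 1473, 1368, 1453, 1477 and 1766 CPM at 0, 30, 90, 120 and 150 min, so the library at 150 min set the high end. The knockout Firre line began at 1370 CPM at 0 min and lay at 1566 to 1602 CPM from 30 min on. The share of all counts that fell in protein-coding promoter intervals moved with these sums: 18.7 ± 0.415% in the wild type control, 19.5 ± 1.06% in the wild type Firre line, 20.1 ± 0.991% in the knockout control and 19.96 ± 0.759% in the knockout Firre line. Within the promoter counts, the members took 0.755 ± 0.00748%, 0.769 ± 0.00823%, 0.743 ± 0.00851% and 0.749 ± 0.00866%. The members' share of promoter counts was thus lowest in the knockout control, where their summed CPM was highest, and its range there (0.732 to 0.755%) overlapped that of the wild type control (0.748 to 0.767%).

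**Figure D2:**
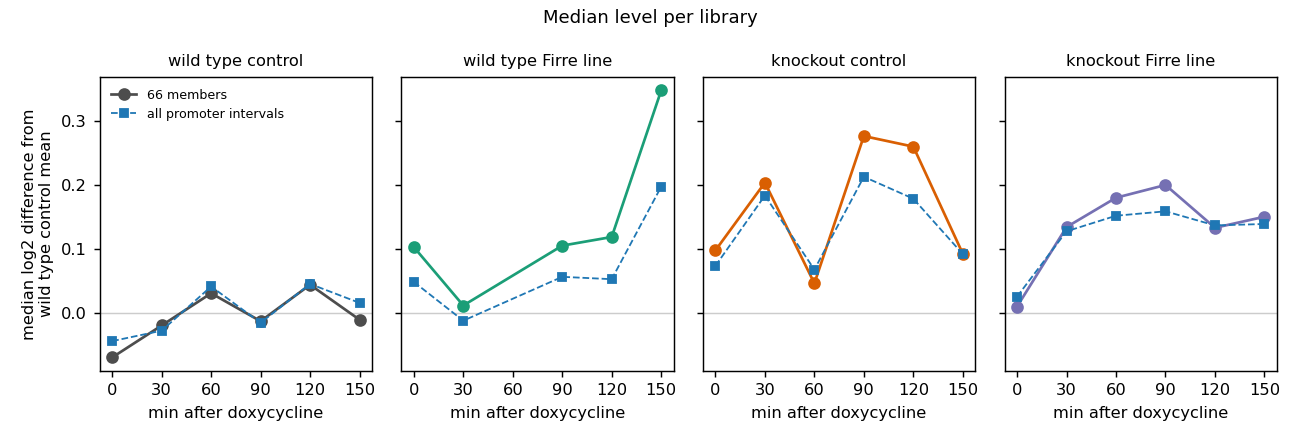
Median log2 difference from the mean of the wild type control, by min after doxycycline, in each line. Circles are the 66 members, squares are all protein-coding promoter intervals, tested or not, and each point is 1 library. The widest gap is at 150 min in the wild type Firre line, 0.35 for members against 0.20 for promoters. The next widest is at 120 min in the knockout control, 0.26 against 0.18.

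The knockout control was compared with the wild type control to ask which promoters differ where the Firre gene is lost. Of the 66 members, 13 were higher in the knockout control and 0 were lower (edgeR quasi-likelihood test, Benjamini-Hochberg adjusted p at most 0.05 over 129515 tested intervals). The share of 19.7% is near that of all promoter intervals, of which 20.4% were higher and 0.737% lower, and above that of all tested intervals, of which 5.5% were higher and 2.47% lower. The median log2 difference was 0.16 for members, 0.12 for promoters and -0.02 for all intervals. A positive value was found for 55 of 66 members (83.3%), 73.8% of promoters and 46.2% of all tested intervals. The 13 were the complex I subunits Ndufv2, Ndufs8, Ndufb6, Ndufa3, Ndufb5 and Ndufa11, the assembly factors Ndufaf8, Ndufaf5 and Sdhaf4, the complex IV subunits Ndufa4 and Cox6b2, and Atp5j and Atp5e of ATP synthase. None was from complex III or from complex II itself. With library sizes scaled on promoter intervals only, which moved the median of all intervals to -0.17, 3 members were higher (Ndufaf8, Ndufv2 and Ndufs8) and 3 lower (Cox6a1, Ndufb8 and Ndufc2). With the promoter share of each library as a covariate, 0 members were called (10 at an unadjusted p under 0.05). The count fell to 6, 4, 4 and 5 without the knockout control at 0, 30, 90 or 120 min, to 2 without both 30 and 90 min, and to 5, 7 and 6 without the wild type control at 90, 120 or 150 min, and it rose to 23 without the knockout control at 150 min; Ndufaf8 and Ndufv2 were called whichever of the 23 libraries was left out, with adjusted p of at most 0.00261 and 0.0254.

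Ndufaf8, an assembly factor of complex I, had the largest difference. Its interval (chr11:120098313-120099389) held 25.8, 30.0 and 33.5 CPM (lowest, median, highest) in the wild type control and 37.0, 40.9 and 49.4 CPM in the knockout control. In the Firre lines it held 23.5 to 39.9 CPM in the wild type background and 33.5, 40.3 and 48.5 CPM in the knockout background. The control lines did not overlap, and the log2 difference was 0.46 ± 0.087 (SE, 1.37-fold; edgeR adjusted p = 0.000117). It is the only member on chromosome 11, where the median over 858 promoter intervals was 0.28 and 47.8% were higher in the knockout control; what part this has in the value of Ndufaf8 was not tested. Without it, 12 of 65 members were called and the median was 0.16.

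Sdhaf4, an assembly factor of complex II, followed at 0.37 ± 0.107 (edgeR adjusted p = 0.0162). It held 7.48, 8.55 and 9.35 CPM in the wild type control and 9.63, 11.01 and 12.5 CPM in the knockout control. The knockout Firre line held 8.12, 8.47 and 10.6 CPM, and the 5 wild type Firre libraries held 9.43, 7.84, 9.99, 10.8 and 11.1 CPM. The control lines did not overlap, and 5 of the 6 knockout Firre libraries lay below every knockout control library. How often promoter intervals in general show the latter order was not computed. Sdhaf4 was not called by DESeq2 (adjusted p = 0.051), with promoter scaling (0.15), with total counts (0.0799) or with the covariate (0.104), nor in edgeR when the knockout control lost its 0 min (0.0632) or 60 min library (0.0796) or the wild type control its 60 min library (0.0626).

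Ndufv2, a core iron-sulfur subunit of complex I, held 25.8, 29.3 and 31.5 CPM in the wild type control and 32.0, 37.6 and 44.2 CPM in the knockout control, again without overlap (log2 0.36 ± 0.086). Its knockout Firre libraries ran from 28.9 to 38.2 CPM, and its wild type Firre libraries from 28.5 to 44.2 CPM. Ndufs8 held 36.4, 39.6 and 44.0 CPM and 42.4, 50.1 and 60.8 CPM in the control lines, which overlapped (log2 0.33 ± 0.087). Ndufb6 (0.32 ± 0.093) and Ndufa3 (0.32 ± 0.094), accessory subunits of complex I, also had overlapping ranges. The remaining 7 called members were 1.20-fold to 1.23-fold higher.

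**Figure D3:**
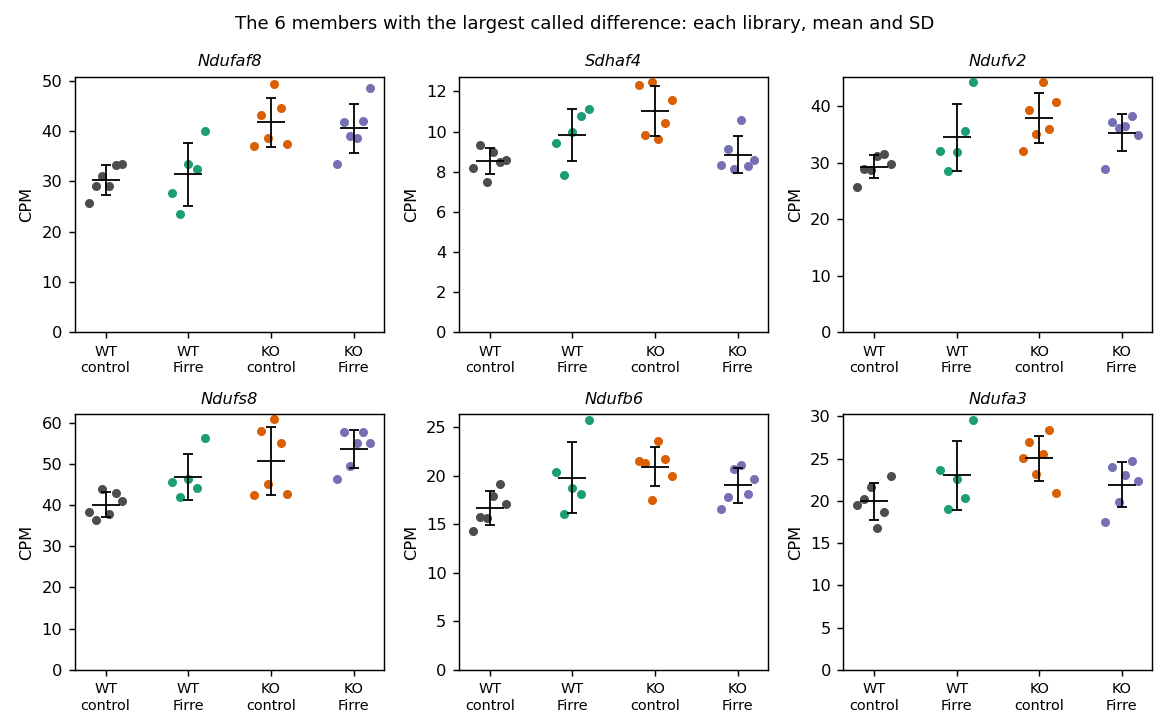
CPM of the 6 members with the largest called difference between the control lines; each point is 1 library, placed by time within its line, and the bar is the mean with the SD (n = 6; the wild type Firre line has n = 5). For Ndufaf8, Sdhaf4 and Ndufv2 the control lines do not overlap, and the highest wild type Firre point is the library at 150 min.

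In 6 members every knockout control library was above every wild type control library: Atp5e, Atp5j, Ndufaf8, Ndufv2, Sdhaf3 and Sdhaf4. That is 9.09% of members, beside 9.71% of promoter intervals, and 0 members had the reverse order. At the low end were Ndufb8 (-0.21 ± 0.101) and Ndufa9 (-0.20 ± 0.121) of complex I and Cox4i2 (-0.18 ± 0.136) and Cox6a1 (-0.16 ± 0.087) of complex IV, none of which passed the test. Cox6a1 held 18.6, 22.5 and 24.7 CPM in the wild type control and 17.6, 19.7 and 21.7 CPM in the knockout control, with overlap. On chromosome 8, Ndufa13 (0.06 ± 0.081) and Ndufb7 (0.06 ± 0.088) were not called. In the catalytic core, Ndufv2, Ndufs8 and Atp5e passed the test and the other 10 did not, with values from -0.05 at Cox5b to 0.22 at Sdhb.

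**Figure D4:**
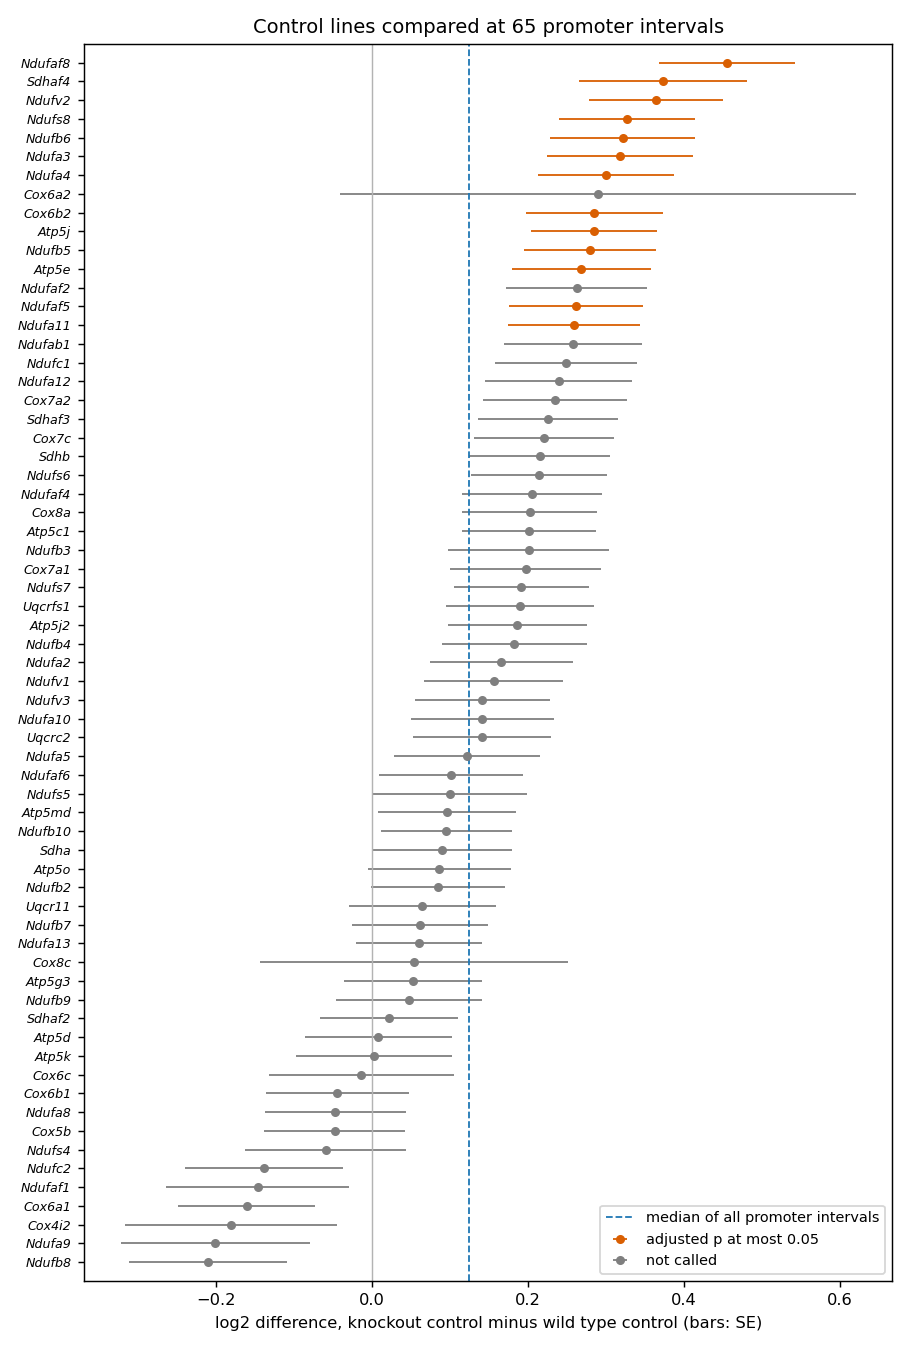
Log2 difference (knockout control minus wild type control) of 65 of the 66 members, each with its SE. Orange points passed the test; the dashed line is the median of all promoter intervals, 0.12, and the members spread around it from -0.21 to 0.46.

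Members were also split by promoter features. Of the 15 members that share an interval with an opposite-strand gene, 6 were called higher, against 7 of the other 41, while the medians were 0.20 and 0.19. Of the 7 with an NRF1 core 2 were called (median 0.06, against 0.19 for the 49 without), and of the 15 with ETS letters 4 were called (median 0.10, against 0.19 for the 41 without). Over all tested promoter intervals 20.4% were higher, and the share among promoter intervals with the same feature was not computed. These splits have few members and no test, so they do not show a trait of the members.

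The knockout Firre line was compared with the knockout control to ask what the inducible transgene changes where the gene itself is lost. Called members numbered 0 (6 at an unadjusted p under 0.05; 0 by DESeq2), where 0.154% of promoter intervals were called higher and 0.205% lower, and 0.569% and 0.344% of all tested intervals. Unadjusted edgeR p under 0.05 covered 9.09% of members, 8.86% of promoters and 12.3% of all tested intervals. The median of the members was -0.01, as it was for all promoter intervals. The values with the smallest p were Sdhaf4 at -0.32 ± 0.105 (adjusted p = 0.125) and the assembly factor Ndufaf4 at -0.21 ± 0.089, and on the positive side Sdhaf2 at 0.19 ± 0.086 and Cox6a1 at 0.18 ± 0.087. This comparison shares the knockout control libraries with the previous one, so opposite signs at Sdhaf4 and Cox6a1 are not independent.

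In the wild type background, 0 members were called between the Firre line and its control (17 at an unadjusted p under 0.05; 0 by DESeq2), beside 0.0512% of promoter intervals higher and 0.0102% lower, and 0.061% and 0.0208% of all tested intervals. An unadjusted edgeR p under 0.05 was found for 25.8% of members, 14.2% of promoters and 7.55% of all tested intervals. The median was 0.13, against 0.07 for promoters. Positive values made up 55 of 66 members (83.3%) and 69.3% of promoters. The comparison of the control lines uses the same wild type control libraries, so its 55 of 66 is not independent of this count. Ndufb5 stood at 0.26 ± 0.089 (adjusted p = 0.419) and Uqcrfs1 at 0.27 ± 0.097, and at the negative end Ndufs5 at -0.13 ± 0.106 and Cox6b1 at -0.11 ± 0.096. Uqcrfs1 held 12.4, 14.1 and 15.9 CPM in the wild type control and 16.1 to 19.5 CPM in the wild type Firre line. The lines did not overlap, by a narrow margin, and the share of promoter intervals with this order was not computed. Without the library at 150 min the median fell to 0.08, and 4 members had an unadjusted p under 0.05. That library had the highest promoter share of the line, 21.2%.

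The difference between these contrasts was tested as an interaction, and 0 members were called (15 at an unadjusted p under 0.05; 0 by DESeq2), beside 0.266% of all tested intervals. By unadjusted edgeR p under 0.05 the shares were 22.7% of members, 13.5% of promoters and 10.6% of all tested intervals. The median was -0.12, against -0.08 for promoters, and -0.03 with library sizes scaled on promoters. Sdhaf4 had the smallest p (-0.52 ± 0.155, edgeR adjusted p = 0.123), then Ndufa3 (-0.38 ± 0.134). On the other side were Cox6a1 (0.23 ± 0.126) and Ndufb8 (0.25 ± 0.144). The interaction uses the libraries of both control lines, so these signs are not independent of the comparison between the control lines.

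The time course asks how quickly accessibility answers to Firre. The mean response, the change from 0 min over 30 to 150 min in the Firre lines minus that in the control lines, was called at 0 members (0 at an unadjusted p under 0.05; 0 by DESeq2) and at 0% of all tested intervals. Its median was 0.03 for members and 0.01 for promoters, and single libraries set its sign: it was -0.04 without the knockout Firre line at 0 min and 0.099 without the wild type Firre line at 0 min. Ndufs5, an accessory subunit of complex I, stood at -0.34 ± 0.197 and Sdha at -0.25 ± 0.175, and Ndufb3 at 0.30 ± 0.191 and Ndufa12 at 0.21 ± 0.190. The joint test of the 5 times called 0 members (4 at an unadjusted p under 0.05, Ndufs5, Cox6c, Ndufb3 and Sdhb; 0 by DESeq2), beside 0.000772% of all tested intervals. By time the median of the members was -0.05, 0.08, -0.04, -0.01 and 0.18 at 30, 60, 90, 120 and 150 min, next to -0.04, 0.06, -0.03, -0.04 and 0.13 for promoters. The median SE of a member was 0.218 to 0.253 at a given time, so changes of this size were not detectable member by member. At 60 min only the knockout background gave the Firre value. In the joint test, 6.06% of members, 3.38% of promoters and 4.42% of all tested intervals had an unadjusted edgeR p under 0.05.

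The change after doxycycline was read from the control lines, as the mean change from 0 min. All lines received doxycycline, so its effect cannot be told apart from that of time in culture or handling. In each control line the baseline at 0 min has no replicate library. The mean change therefore does not isolate doxycycline. It was called at 0 members (4 at an unadjusted p under 0.05; 0 by DESeq2) and at 0% of all tested intervals, with a median of 0.07 for members and for promoters. Among members 6.06% had an unadjusted edgeR p under 0.05, as did 5.75% of promoters and 5.26% of all tested intervals. Cox7a2 (0.35 ± 0.132) and Ndufs5 (0.34 ± 0.139) led, and Ndufb3 (-0.18 ± 0.135) and Uqcr11 (-0.12 ± 0.125) were at the other end. Ndufs5 held 8.45 CPM in the wild type control at 0 min and 13.9 to 15.5 CPM from 30 min on, while the knockout control held 12.9 to 16.3 CPM over all its times.

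Other genes of the pathway were read by the same rule and fit, beside the 20.4% of promoter intervals that were higher in the knockout control. Of 14 regulators of mitochondrial gene expression, 8 had a promoter interval by the same rule, and 4 of 8 tested intervals were higher in the knockout control: Tfam, which packages mitochondrial DNA (0.38 ± 0.087), Tfb1m (0.40 ± 0.085), and the orphan nuclear receptors Esrra (0.40 ± 0.086) and Esrrb (0.41 ± 0.088), the last also a naive pluripotency factor. Of 37 electron carriers and further assembly factors, 21 had intervals. Of 22 intervals, 4 were higher (Lyrm7, Coa7, Tmem126b and Pet100, 0.28 to 0.32) and 1 was lower. The lower interval was of Cox18, at -0.58 ± 0.184. Lyrm7 lies on chromosome 11, where 47.8% of promoter intervals were higher and their median was 0.28. What part this has in the value of Lyrm7 (0.32) was not tested. Under other settings, read for these lists after seeing the data, the same 4 regulators were higher by DESeq2, with promoter scaling and with total counts, and 0 with loess offsets (a scaling that follows the level of an interval), with the covariate or without the knockout control at 30 and 90 min. Of the carriers and assembly factors, 4 were higher by DESeq2, 3 with total counts and 0 with promoter scaling, loess offsets, the covariate or without those libraries. Leaving out 1 library gave 0 to 8 of them: dropping the 90 min library of the wild type control left 0, dropping its 150 min library or the 30 or 90 min library of the knockout control left 2, and dropping the 150 min library of the knockout control gave 8. Cox18 was not called lower by DESeq2, loess offsets or the covariate. In each of 5 other comparisons (the joint test of the times was not read for these lists) 0 of these intervals were called by edgeR. Of the 9 stem cell markers, 3 were higher in the knockout control (Esrrb, Zfp42 and Dppa5a), 1 with promoter scaling (Esrrb) and 0 with the covariate, while 2 were lower with loess offsets (Sox2 and Tdgf1). On the X chromosome, left out by the rule, Ndufb11 held 12.6 CPM per kb (0.34 ± 0.095, adjusted p = 0.0139, higher in the knockout control) and Cox7b 2.78 CPM per kb (-0.20 ± 0.295).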

How the data were processed

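ATAC-seq libraries of 4 mouse embryonic stem cell lines were used, 23 in all. The deposited counts are raw whole numbers per consensus interval and library, with no scaling by the authors. The deposited annotation gives each interval's gene and, as a score in signed bp, its distance to the TSS. Peak calling by MACS2 2.2.7.1, counting by featureCounts and the build mm10 are named per the submitters' processing notes. Alignment, duplicate removal and any shift of reads for the transposase, each of which could change counts at a promoter edge, are not stated in the sources used.

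Counts were fitted with edgeR 4.0.16 (R 4.3.3; glmQLFit, robust, current mode) on TMM library sizes, over 129515 intervals that passed filterByExpr (minimum count 10, lines as groups). All 66 members passed. The line fit held line and time (14 residual degrees of freedom), so the times of a line are its replicates; the time fit added transgene by time (9). Adjustment was by Benjamini-Hochberg across every tested interval, and SE come from the F statistic. The fits were also run on simulated counts, with folds larger than those of the called members and no shift in promoter share. That run therefore does not cover differences of the size reported here. Levels per library for log2 medians used a pseudocount of 0.1 CPM. With 3 counts as the floor, a 0 at the median library size leaves room for 0.391 CPM; floors cover counting error only. The annotation's build is mm10, and sequences and neighbouring genes are from RefSeq on GRCm38.p6, matched by symbol (56 of 66 with a promoter window).

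The members, lists and motifs were chosen with earlier results of these data known. Named members were, for each comparison with calls, the 6 called with the largest difference per direction, otherwise the 2 with the smallest p per direction, the 5 highest and 5 lowest by level, the members of the core and isoform lists, and those on chromosomes 8 and 11. Members named for motif matches, opposite-strand pairs, the spread within a line or calls under another scaling were chosen after their values were seen. Alternatives were DESeq2, other scalings, loess offsets, a promoter share covariate, other count filters, no time term, a 250 bp limit, no chromosome 11, and leaving out each library. The values of 1 member are not reported here by name.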

Additional observations from a re-analysis of the deposited data

Results flagged for a closer look

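Within each line, the highest or lowest library was compared with the others. The members compared were the 13 called, the 5 highest and 5 lowest by level, and the reported members of the core and isoform lists. The summed level, the members' share of promoter counts and their median difference from promoters were also compared. Other members named above were not, among them Ndufs5, with its low wild type control value at 0 min (8.45 CPM, others 13.9 to 15.5). This gave 128 groups of 5 or 6 libraries, of which chance alone would mark about 1 in 20. Of these, 11 held a library far from the rest, and 6 of the 11 were the wild type Firre line at 150 min. There the summed level was 1766 CPM, beside 1368 to 1477 CPM at its other times. In the same library Atp5c1 reached 29.9 CPM (others 24.2 to 24.8), Ndufa4 38.9 CPM (29.4 to 31.1), Ndufv1 34.0 CPM (24.8 to 27.0), Uqcrfs1 19.5 CPM (16.1 to 16.7) and Atp5d 20.2 CPM (15.1 to 16.5).

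In the knockout Firre line, 0 min was the low library for the summed level, at 1370 CPM beside 1566 to 1602 CPM, and for Ndufv2, at 28.9 CPM beside 34.9 to 38.2 CPM. Other single libraries of that line were Atp5d at 60 min (19.9 CPM, others 15.8 to 16.8), Cox7a1 at 30 min (21.9 CPM, others 15.4 to 17.7) and Cox8c at 150 min (1.25 CPM, others 2.28 to 2.79).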

How the results depend on the processing

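The 13 members called higher in the knockout control became 4 with loess offsets (2 higher, 2 lower), 6 with promoter scaling (3 and 3), 6 with total count scaling (4 and 2), 0 with a covariate for promoter share and 2 when knockout control libraries at 30 and 90 min were dropped; leaving out 1 library gave 4 to 23. Under DESeq2, 11 of the 13 were called, without Sdhaf4 and Atp5e. The median of 0.16 became 0.00176 with loess offsets, 0.0151 with promoter scaling, -0.00712 with the covariate and 0.0663 with total counts, and 0.12 to 0.21 without 1 library. Of all tested intervals called, 69.0% were higher in the main fit, 56.2% with loess offsets, 34.8% with total counts and 20.02% with promoter scaling. Among the 13, Cox6b2 turned to -0.0749 with loess offsets and -0.0243 with the covariate, Ndufa11 to -0.0471 and Atp5j to -0.000419 with loess offsets; Ndufaf8 and Sdhaf4 were the 2 of the 13 still called with loess offsets. In the knockout Firre line against its control, 1 member (Sdhaf2, 0.21) was called with the covariate. The interaction median moved from -0.12 to -0.0327 with promoter scaling, and 1 member (Ndufa3, -0.48) was called there without the knockout control at 150 min (0 to 1 over the libraries left out). The other comparisons had 0 called members under every alternative run. The cause of these changes was not tested. Taking 1 interval per gene changes nothing, since each member gene has 1. Time, which pairs libraries across lines, is a term of the fit; without it 14 members were called, all of the 13 among them. Intervals as low as Cox6a2 (4 to 17 counts per library) allow no firm statement.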
